A study of Mus musculus with 18 samples.

Results

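The cytoplasmic ribosomal protein genes encode the proteins of the 60S and 40S ribosomal subunits. They were chosen by name, as Rpl or Rps followed by a number and at most 1 of the letters a, l or x, together with Rplp0, Rplp1, Rplp2, Rpsa and Fau. This rule matched 84 of the 41079 genes measured, and Rpl6l and Rps4l, which RefSeq types as pseudogenes, were left out. The remaining 82 members were 50 genes of the 60S and 32 of the 40S subunit, and 78 of them averaged 1 FPKM or more over the tumors (fragments per kilobase of gene, per 1000000 fragments assigned to genes) and entered the tests, among 12357 genes. The other 4 were Rpl10l, Rpl3l, Rpl39l and Rpl32l. Rps3a1 and Rack1, also proteins of the ribosome, do not have names that the rule takes.

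Bulk poly(A) RNA was sequenced from 18 subcutaneous tumors of B16F10 cells, a melanoma line of C57BL/6 origin, grown in female C57BL/6 mice, on the right flank, after injection of 100000 cells by the labels (the study's methods give a larger number). Intratumoral treatment began on day 6, at a tumor volume of about 50 mm3, was repeated every 2 days, and tumors were taken 48 h after the last injection. The 6 groups of 3 tumors received PBS; Free PS473, a Pistol ribozyme made to cut the mRNA of the checkpoint ligand PD-L1; PS473@CPs, the ribozyme in cationic polymers; NKMOF-101-[Mn], a manganese metal-organic framework with no ribozyme; M5@NKMOF-101-[Mn], the framework with a catalytically inactive mutant; or PS473@NKMOF-101-[Mn], the framework with the active ribozyme. The titles of the last 3 samples name the framework NKMOF-102 and the other labels name it NKMOF-101. No label states that the tumors of a group came from separate mice, so the p values measure the spread between these tumors. Cd274, which encodes PD-L1, was at 12.3 to 21.5 FPKM in the PBS tumors and at 17.0, 32.9 and 9.74 FPKM in the PS473@NKMOF-101-[Mn] tumors, which therefore overlapped. All 9 melanocyte markers examined were above 0 in every tumor, with Pmel at 893 to 1836 FPKM. Between 17212000 and 28401000 fragments were assigned to genes in each tumor.

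Ribosomes translate every mRNA of the cell, and the ribosomal proteins are needed in equal numbers, 1 copy of most of them in each ribosome. Their genes are among the most strongly transcribed in dividing cells. Many of their mRNAs begin with a C followed by a run of pyrimidines, the 5′ terminal oligopyrimidine (TOP) tract, through which mTOR and Larp1 control their translation. Most of the genes also have processed pseudogenes elsewhere in the genome, which can share sequencing reads with them.

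The annotated first bases of some members show such a tract. In the principal transcripts of GENCODE M21 (mouse build GRCm38), 10 of 81 members with a transcript (12.3%) began with C and at least 5 pyrimidines in a row, and 491 of 21877 protein-coding genes (2.24%) did. The first 20 bases of exon 1 of 5 members with such a start are given here because they include 2 of the 5 members of highest level, Rpl32 and Rps2, and the steadiest one, Rpl4. Rplp1, Rpl8 and Rplp0, also among the 5 highest, do not have such a start in this annotation, which does not show how their mRNAs begin. Capitals mark the pyrimidines that run on from the first base.
Rpl32: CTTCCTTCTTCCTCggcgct
Rps2: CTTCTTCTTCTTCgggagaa
Rps24: CTCTTTTCCTCCTCTCCagc
Rpl4: CTTTTCCTgtgggagcagcc
Rpl30: CCTTTCTCgctccccggcca
These windows lie at chr6:115808728-115808747 on the minus strand for Rpl32, chr17:24720110-24720129 on the plus strand for Rps2, chr14:24490718-24490737 on the plus strand for Rps24, chr9:64173375-64173394 on the plus strand for Rpl4 and chr15:34443203-34443222 on the minus strand for Rpl30. The annotated first base can lie some bases from the one the cell uses. In RefSeq promoter windows of 300 bases (GRCm38.p6, 250 before and 50 after the start), the letters CCGGAA, the core of ETS-family sites, were found on either strand in 45.9% of 74 windows of 62 members and in 14.9% of 32851 windows of all genes. The letters AAGATGG, the core of YY1 sites, were in 16.2% and 6.34%, and TATAAA was in 9.46% and 13.6%. The E-box CACGTG was in 10.8% and 7.15%. Each motif was counted by itself, and matches of different motifs may overlap.

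The members were among the highest genes of the tumors. Their mean over the 18 tumors had a median of 484 FPKM over the 78 tested members, against 7.41 FPKM over all genes tested, and 42 members were among the 100 genes of highest mean. Rplp1, an acidic protein of the 60S stalk that recruits translation factors, was highest at 2517 ± 365 FPKM (SD, n = 18), followed by Rpl32 at 1841 ± 503, Rps2 at 1367 ± 178, Rpl8 at 1346 ± 188 and Rplp0, the base of the stalk, at 1277 ± 246 FPKM. The last 3 differed by less than their SDs. Of the tested members, 11 had a mean of at least 1000 FPKM, 61 lay between 100 and 1000 and 6 lay below 100 FPKM. The lowest tested members were Rpl21 at 31.5 ± 5.64, Rps27l at 45.2 ± 11.5, Rpl22 at 58.8 ± 8.43, Rps15a at 79.7 ± 20.5 and Rps20 at 87.9 ± 12.3 FPKM (SD, n = 18). These levels per length depend on the gene length used. The lengths in the deposited table were 0.45 to 9.10 times those of the principal transcripts, over 3 times for 4 members, and with transcript lengths in their place the SD of the log2 level over members was 1.00 instead of 1.27.

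Together the members took 3.62% to 6.12% of the fragments of a tumor, a 1.69-fold range. Each share had a 95% Wilson interval of at most ± 0.0105 percentage points, which covers counting error only. The PBS tumors gave 6.12%, 3.63% and 3.62%, and the Free PS473 tumors 4.11%, 3.67% and 5.90%. The PS473@CPs tumors gave 4.68%, 4.62% and 3.86%, and the NKMOF-101-[Mn] tumors 3.96%, 4.48% and 3.80%. The M5@NKMOF-101-[Mn] tumors, the most alike of the groups, gave 3.95%, 4.00% and 4.05%, and the PS473@NKMOF-101-[Mn] tumors 3.70%, 3.67% and 4.38%. PBS tumor 1 and Free PS473 tumor 3 stood above all others, and the shares of every other group lay within the range of PBS. Without those tumors, a choice made after the values were seen, the shares of every other group were all above those of the other 2 PBS tumors. Those of PS473@CPs still overlapped those of PS473@NKMOF-101-[Mn]. The ratio of the 60S to the 40S share stayed between 1.53 and 1.64 in all 18 tumors. In such bulk tissue, a difference in the number of cells of a type and one in RNA per cell cannot be told apart.

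**Figure D1:**
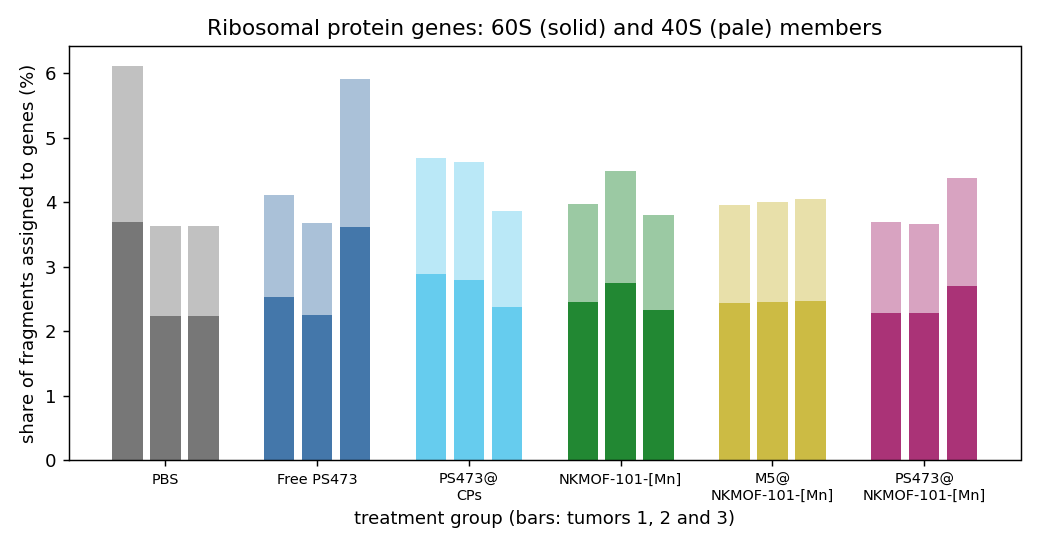
Share of fragments assigned to genes (%) that fell in the 82 ribosomal protein genes, 1 bar for each of 18 tumors, with the 60S members solid and the 40S members pale. PBS tumor 1 (6.12%) and Free PS473 tumor 3 (5.90%) stand above the other 16 tumors, which lie between 3.62% and 4.68%.

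The pair of high tumors set most of the variation of the members. Of the 78 tested members, 48 had their highest value in PBS tumor 1 and 23 in Free PS473 tumor 3, and 62 (79.5%) had their 2 highest values in these tumors, as did 8.27% of the other genes tested. Rpl32 shows the pattern, with 3298, 1423 and 1444 FPKM in PBS, 1727, 1438 and 2962 in Free PS473, and 1543 to 2146 FPKM in the other 4 groups. Rps14, a 40S protein, had 1937 FPKM in PBS tumor 1 and 699 FPKM in PBS tumor 3, its lowest tumor. PS473@CPs tumors 1 and 2 and NKMOF-101-[Mn] tumor 2 came next, with 75, 74 and 75 members above their own mean, against 76 in PBS tumor 1 and 78 in Free PS473 tumor 3. In the other 13 tumors, PS473@NKMOF-101-[Mn] tumor 3 had 42 members above their mean and the rest 0 to 22.

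Some other measures also stood apart in PBS tumor 1 and Free PS473 tumor 3, and others lay within the range of the other tumors. The 1318 tested genes under 1000 bases that are not members had a median log2 difference from their own mean of 0.26 in PBS tumor 1 and 0.29 in Free PS473 tumor 3, against -0.20 to 0.10 in the other 16 tumors. The 6135 genes over 4000 bases had -0.09 and -0.05, within the range of -0.14 to 0.06 of the others. The median length of the 78 tested members was 947 bases and that of the other genes tested 3998 bases. Among members, those with principal transcripts under 600 bases had median differences of 0.65 and 0.56 in the pair, and those of 1000 bases or more 0.50 and 0.44. By the lengths of the deposited table, members had 0.63 and 0.55 under 1000 bases and 0.53 and 0.48 from 1000 to 2000. They had 0.50 and 0.52 from 2000 to 4000 (7 members) and 0.69 and 0.48 over 4000 (2 members). The mean log2(FPKM + 1) of the 78 mitochondrial ribosomal protein genes was 4.83 and 4.89 in the pair and 4.31 to 4.76 elsewhere, and that of 70 ribosome biogenesis factors was 4.48 and 4.61, within the 4.38 to 4.80 of the others. The red cell markers scored 8.82 and 7.68, against 1.94 to 8.40, and skin epithelium markers 0.07 and 2.44, against 0.06 to 5.10, with the keratin Krt14 at 0 in PBS tumor 1 and 184 FPKM in Free PS473 tumor 3. The mitochondrial genome held 1.03% and 0.957% of the fragments, against 0.875% to 5.44%. The part of any of these in the members' levels was not tested.

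**Figure D2:**
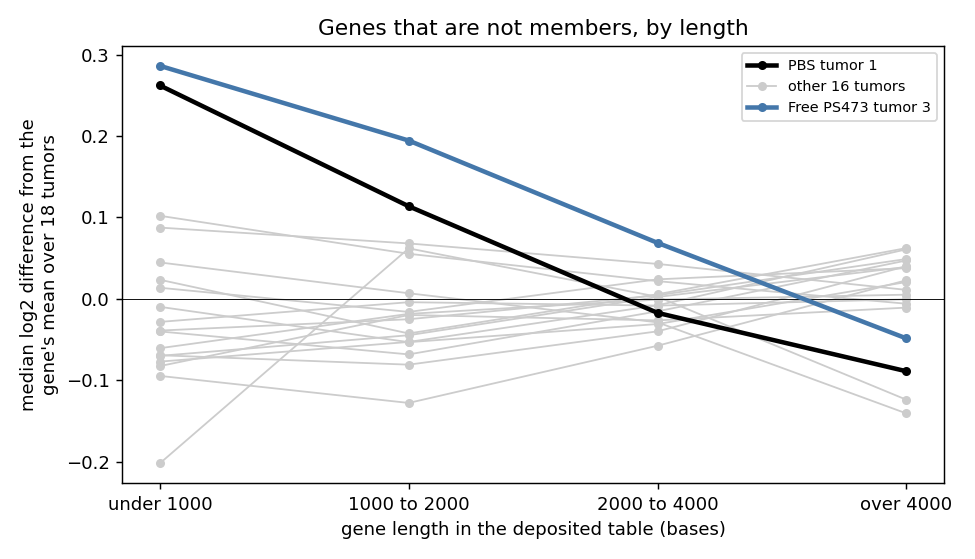
Genes other than the members, grouped by length in bases, against the median log2 difference of a tumor from each gene's mean over 18 tumors, 1 line for each tumor. PBS tumor 1 and Free PS473 tumor 3 lie highest for genes under 1000 bases (0.26 and 0.29) and below 0 for genes over 4000 bases.

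The members varied more than other genes, and together. The SD of log2(FPKM + 1) over 18 tumors had a median of 0.26 over members and 0.18 over all genes tested, and 0.16 for both without PBS tumor 1 and Free PS473 tumor 3. Pearson's r of a member with the mean of the other members had a median of 0.940, and 54 of 78 (69.2%) were above 0.9, as were 0.928% of the other genes with the member mean. Without the pair of tumors the median r was 0.860. These correlations run over 18 tumors that share library and tissue composition, and are descriptions. The other genes most like the members were Naca (r = 0.977), a chaperone subunit at the ribosome exit, Eef1b2 (0.973), an exchange factor of elongation, Nme2 (0.972), a nucleoside diphosphate kinase, Gm45552 (0.967) and Aimp1 (0.966), part of the tRNA synthetase complex.

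**Figure D3:**
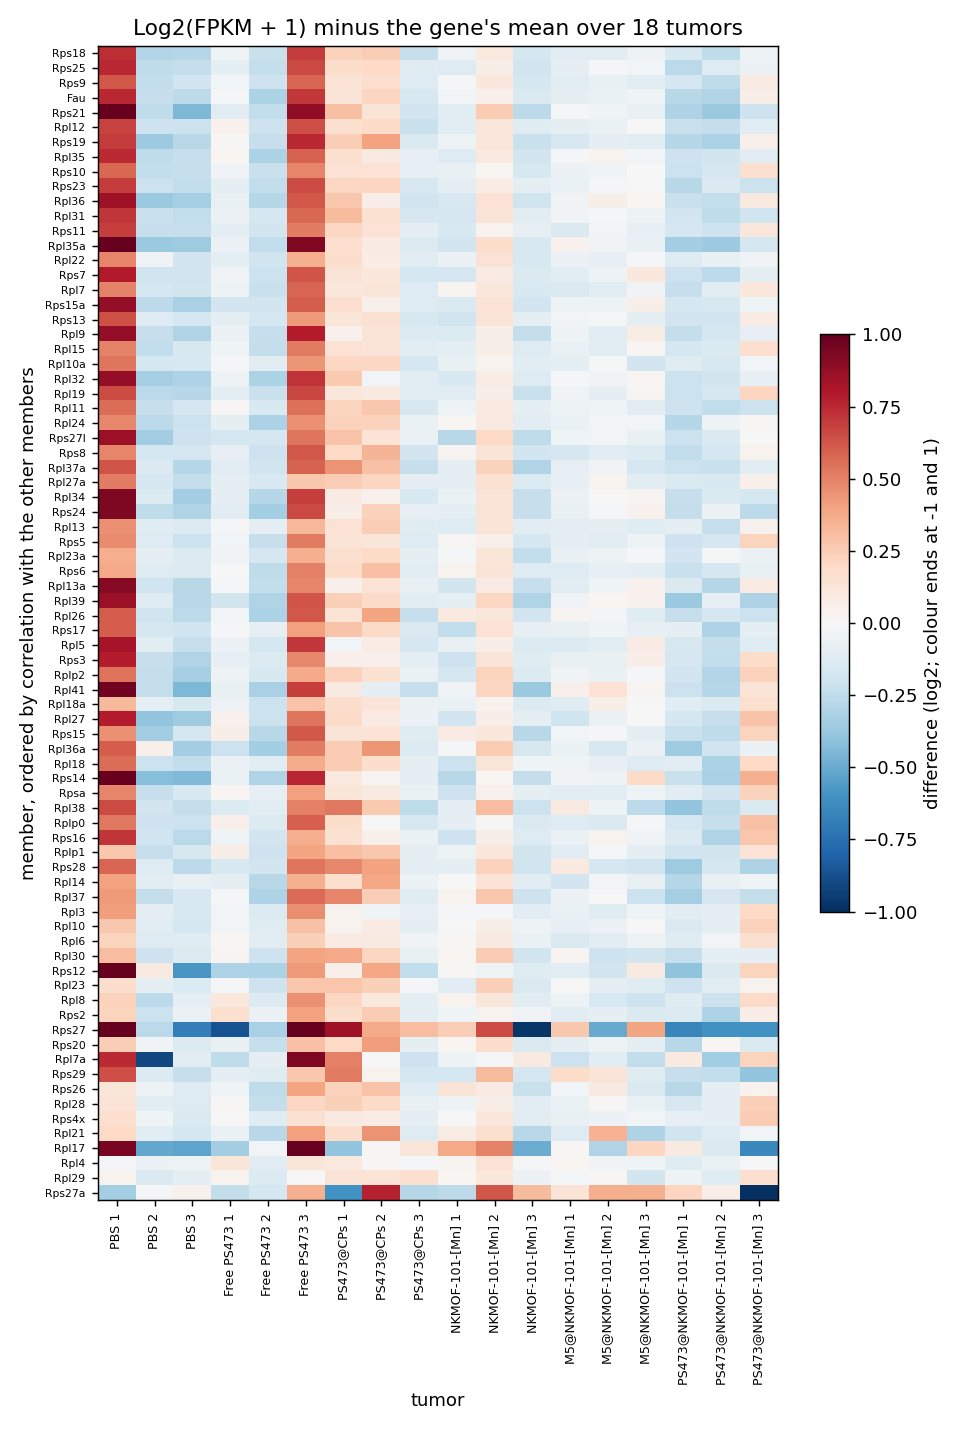
Log2(FPKM + 1) of the 78 tested members (rows, ordered by correlation with the other members) minus each gene's mean over the 18 tumors (columns). Red columns mark PBS tumor 1 and Free PS473 tumor 3, and the lowest rows, Rpl4, Rpl29 and Rps27a, have the lowest correlations with the other members (0.538, 0.426 and 0.0036).

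A few members departed from the common pattern. The SD of the departure from the member mean had a median of 0.11 on the log2 scale and was above 0.2 for 7 members, Rps27a, Rps27, Rpl17, Rpl7a, Rps12, Rpl29 and Rpl4. Rpl4, a large protein that lines the peptide exit tunnel, was the steadiest of all, with an SD of 0.08 on the log2 scale and 775 to 934 FPKM, and stood at 831 FPKM in PBS tumor 1 and 917 in Free PS473 tumor 3, where most members were highest. Rpl29 (138 to 176 FPKM), Rps4x (545 to 721), Rpl6 (484 to 629) and Rpl10 (908 to 1255) also had SDs of 0.14 or less. Rps12 departed upward in 1 tumor, at 225 FPKM in PBS tumor 1 and 64.1 to 130 in the other tumors.

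Whether the treatments changed these genes was asked in 9 comparisons, PS473@NKMOF-101-[Mn] against each other group and each other group against PBS, with limma on log2(FPKM + 1) over all 12357 genes. No member was called at a Benjamini-Hochberg adjusted p under 0.05 with a fold above 2 in any comparison, where 0% of all genes were called. The test for any difference among the 6 groups gave 0 members and 0% of all genes at the adjusted threshold, and 0 members against 1.99% of all genes at an unadjusted p under 0.05. In the 9 comparisons 0 or 1 member passed an unadjusted p under 0.05. The standard error of a member's log2 fold change had a median of 0.22, so that a difference of the size of the member medians could not be shown for a single gene.

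PS473@NKMOF-101-[Mn] tumors had lower values than the others for most members. Against PBS the median log2 fold change of the members was -0.17 (-0.01 over all genes), with 72 of 78 lower, 0 at an unadjusted p under 0.05 and 2.1% of all genes there. Without PBS tumor 1 this median turned to 0.10, with 64 members higher and 14 lower once Free PS473 tumor 3 was left out as well. Against Free PS473 the median was -0.20 (-0.04 over all genes), with 76 lower and 0 members at an unadjusted p under 0.05 beside 4.98% of all genes, and without Free PS473 tumor 3 it was 0.01. Against PS473@CPs it was -0.19 (0.00 over all genes), with 76 lower and 1 member at an unadjusted p under 0.05 beside 2.29% of all genes. Against NKMOF-101-[Mn] it was -0.08 (-0.04 over all genes), with 67 lower, and 0 members beside 2.3% of all genes at that p. Against M5@NKMOF-101-[Mn] it was -0.06 (-0.01 over all genes), with 61 lower, and 0 members beside 0.591% of all genes. Leaving out NKMOF-101-[Mn] tumor 2 brought the former to -0.01, and leaving out PS473@NKMOF-101-[Mn] tumor 1 brought the latter to -0.01. Leaving out PS473@NKMOF-101-[Mn] tumor 3 gave -0.15 and -0.14, and leaving out PS473@CPs tumor 3 gave -0.29 in the comparison with PS473@CPs. The 5 comparisons share the PS473@NKMOF-101-[Mn] tumors.

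The comparisons with PBS share its 3 tumors, and each turned in sign or moved with PBS tumor 1. For Free PS473 the member median was 0.04 (0.03 over all genes), with 59 of 78 members higher. At an unadjusted p under 0.05 were 0 members beside 1.81% of all genes. The member median was 0.31 without PBS tumor 1 and -0.18 without Free PS473 tumor 3. For PS473@CPs it was 0.03 (-0.01 over all genes), with 50 higher, and 0.30 without PBS tumor 1. At that p were 1 member and 2.09% of all genes. For NKMOF-101-[Mn] the member median was -0.09 (0.03 over all genes), with 63 lower, and 0.17 without PBS tumor 1. At that p were 0 members and 1.46% of all genes. For M5@NKMOF-101-[Mn] the member median was -0.11 (-0.01 over all genes), with 74 lower, and 0.15 without PBS tumor 1. At that p were 0 members and 1.51% of all genes. Leaving out PBS tumor 3 gave -0.10, -0.23 and -0.26 for the last 3 groups, and leaving out PBS tumor 2 gave -0.32 for PS473@NKMOF-101-[Mn]. Leaving out Free PS473 tumor 2 gave -0.35 for PS473@NKMOF-101-[Mn] against Free PS473.

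Both high tumors were also left out together, a choice made after the values were seen, which removes extreme values from the spread that all groups share. Leaving out the highest PBS tumor lowers the PBS mean of the members, so a shift upward against PBS follows from the choice. Without both tumors the median SD of log2(FPKM + 1) fell from 0.26 to 0.16 for members and from 0.18 to 0.16 for all genes. Against the remaining 2 PBS tumors, 77 of 78 members were higher in PS473@CPs, and 39 had an unadjusted p under 0.05, beside 6.19% of all genes. Most members were also higher there in NKMOF-101-[Mn] (78), M5@NKMOF-101-[Mn] (77), Free PS473 (66) and PS473@NKMOF-101-[Mn] (64). In that order, 3, 7, 0 and 1 members had an unadjusted p under 0.05, beside 2.68%, 6.94%, 6.35% and 6.47% of all genes. For PS473@NKMOF-101-[Mn] against PS473@CPs, which hold neither tumor, the fold changes stayed as they were and the errors alone became smaller (0.23 to 0.15 for Rps28), which put 25 members at an unadjusted p under 0.05, beside 3.8% of all genes. None of these 39 and 25 members passed the adjustment, with smallest adjusted p values of 0.785 and 0.904 by limma. Members vary together, so neither count is one of separate results. The members of smallest p in PS473@CPs against PBS were Rpl35a, Rpl24 and Rpl32, with log2 fold changes of 0.40 ± 0.12, 0.37 ± 0.12 and 0.36 ± 0.12 (SE). PS473@CPs tumor 2 also had the largest mitochondrial share, 5.44%.

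**Figure D4:**
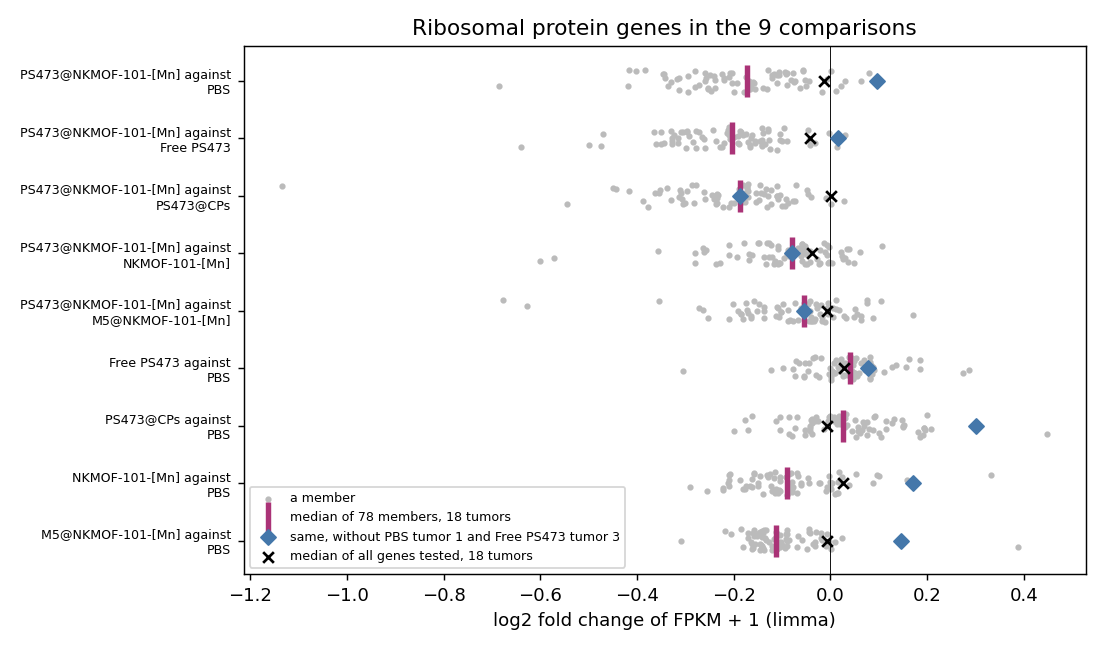
Log2 fold change of FPKM + 1 (horizontal) of the 78 tested members in the 9 comparisons (rows). Bars mark the member median over 18 tumors, diamonds the member median without PBS tumor 1 and Free PS473 tumor 3, and crosses the median of all genes, and in 4 of the 9 rows (3 framework groups against PBS, and PS473@NKMOF-101-[Mn] against Free PS473) the diamond lies on the other side of 0 from the bar.

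Single members of the smallest p are given by role. Members picked by p tend to separate the groups, and the share of all genes without overlap between groups was not counted, here or below. Rps28, a small 40S protein at the mRNA exit, had 241, 229 and 162 FPKM in PS473@CPs and 135, 152 and 139 FPKM in PS473@NKMOF-101-[Mn], without overlap. Its log2 fold change was -0.54 ± 0.23 (SE), with an unadjusted p of 0.0345 and a limma adjusted p of 0.996. Rpl29, a 60S protein, had 172, 173 and 176 FPKM in PS473@CPs and 161, 142 and 148 in PBS, again without overlap, and a log2 fold change of 0.21 ± 0.09 (unadjusted p of 0.0409, limma adjusted p of 1). Rps2, a 40S protein at the mRNA entry, had 1236, 1096 and 1424 FPKM in PS473@NKMOF-101-[Mn] and 1519, 1301 and 1792 in Free PS473, which overlapped. Against PBS, the members of smallest p in PS473@NKMOF-101-[Mn] were Rps29 (-0.38 ± 0.23), Rpl39 (-0.40 ± 0.27) and Rps28 (-0.34 ± 0.23), on the log2 scale with SE. Rpl13a (-0.26) in NKMOF-101-[Mn] and Rpl13 (-0.17) in M5@NKMOF-101-[Mn], both against PBS, turned to 0.13 and 0.027 without PBS tumor 1.

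The groups of members with known roles showed no call of their own. The 3 stalk proteins had a median log2 fold change of -0.07 in PS473@NKMOF-101-[Mn] against PBS, and 0 of 3 passed an unadjusted p under 0.05, which 2.1% of all genes passed in this comparison, so that 0 in sets of this size is near that share. Rplp1 had 3011, 2121 and 2232 FPKM in PBS and 2172, 2192 and 2736 FPKM in PS473@NKMOF-101-[Mn], and the groups overlapped. Rpl5, Rpl11, Rpl23 and Rpl26, which can bind Mdm2 and so stabilise p53 when ribosome assembly fails, had a median of -0.27, and 0 of 4 passed. Of these Rpl11, which joins the 5S RNA with Rpl5, had 405, 234 and 244 FPKM in PBS and 237, 230 and 236 FPKM in PS473@NKMOF-101-[Mn]. Its level in PBS tumor 1 was far above the 3 treated tumors, and of the other PBS tumors 1 lay among them and 1 above. The exit tunnel proteins Rpl4, Rpl17 and Rpl39 had a median of -0.20, and 7 named 40S proteins, Rps6, Rps3, Rps19, Rps14, Rps23, Rps2 and Rpsa, had -0.16, with 0 passing in either set. Rps6, the substrate of the S6 kinases, ranged from 374 to 634 FPKM, Rps3 from 393 to 835, Rps19, which is mutated in Diamond-Blackfan anemia, from 164 to 359, Rps23 from 707 to 1392 and Rpsa from 822 to 1350 FPKM over the 18 tumors. The X-linked members Rps4x, Rpl10, Rpl39 and Rpl36a had a median of -0.16, and 0 of 4 passed.

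The ubiquitin fusion genes did not move as a set. Fau, a 40S protein made with a ubiquitin-like domain, followed the other members (r = 0.981) and ranged from 260 to 548 FPKM. Rps27a, which encodes ubiquitin joined to a 40S protein, had the lowest correlation of all members (r = 0.0036). It had 171, 215 and 223 FPKM in PBS, 184, 192 and 279 in Free PS473, 143, 371 and 178 in PS473@CPs, 181, 335 and 271 in NKMOF-101-[Mn], 238, 280 and 278 in M5@NKMOF-101-[Mn] and 252, 228 and 86.7 in PS473@NKMOF-101-[Mn]. Its lowest value was in PS473@NKMOF-101-[Mn] tumor 3 and its highest in PS473@CPs tumor 2, and every group overlapped PBS except M5@NKMOF-101-[Mn], which lay above it. That difference was 0.39 ± 0.39 on the log2 scale (SE, limma adjusted p of 0.999). PS473@NKMOF-101-[Mn] was at -0.63 ± 0.39 relative to M5@NKMOF-101-[Mn] (SE, limma adjusted p of 1). Of the 50-base words of its principal transcript, 71.9% occur in other annotated genes, but 0 of its 3 annotated copies were in the deposited table.

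Paralogs known from testis or striated muscle were near absent. Rpl10l, a testis paralog of Rpl10, was at 0 in all 18 tumors, where 3 fragments would have been 0.103 to 0.170 FPKM, while Rpl10 averaged 1031 FPKM. Rpl3l, the striated muscle paralog of Rpl3, was at most 0.785 FPKM, in Free PS473 tumor 3, and was at 0 in 3 tumors. Rpl39l, a paralog strong in testis, was at most 0.991 FPKM, while Rpl39 averaged 529 FPKM. Rpl32l, named like Rpl32, ranged from 0.373 to 1.60 FPKM. Rps27l, a paralog of Rps27 known as a p53 target, was expressed at 34.4 to 80.6 FPKM and followed the members (r = 0.957), with 80.6 FPKM in PBS tumor 1 and 64.4 in Free PS473 tumor 3.

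Rps27, a zinc-finger protein of the 40S subunit, had the largest SD of all tested members (0.70 on the log2 scale), and its coding sequence is shared. In GRCm38 the coding sequence of Rps27 has 4 exons at chr3:90212725-90213615 on the minus strand and that of Rps27rt 1 exon at chr9:114982453-114982707 on the minus strand. Both have 255 bases, with 0 differences. The coding sequence of the paralog Rps27l, at chr9:66946175-66949357 on the plus strand with 4 exons, differs from it at 61 bases (76.1% identical). The sequences are shown because a read from the first pair cannot be placed by its coding bases and one from Rps27l can. Capitals mark the bases of Rps27l that differ from Rps27.
Rps27 and Rps27rt: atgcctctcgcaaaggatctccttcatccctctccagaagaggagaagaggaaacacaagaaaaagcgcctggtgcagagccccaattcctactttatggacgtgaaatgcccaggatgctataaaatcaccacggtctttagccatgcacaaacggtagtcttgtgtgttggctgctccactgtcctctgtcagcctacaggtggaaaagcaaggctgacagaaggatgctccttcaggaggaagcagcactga
Rps27l: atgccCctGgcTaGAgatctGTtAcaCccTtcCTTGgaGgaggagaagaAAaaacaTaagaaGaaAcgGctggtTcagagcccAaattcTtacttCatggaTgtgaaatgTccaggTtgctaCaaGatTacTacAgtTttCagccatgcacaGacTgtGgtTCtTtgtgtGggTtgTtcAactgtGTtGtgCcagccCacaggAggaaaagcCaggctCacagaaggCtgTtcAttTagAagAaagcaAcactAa

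The fragments of the pair were divided differently between tumors. Rps27 held 32.9% to 82.2% of the fragments assigned to Rps27 and Rps27rt together, with the lowest share in NKMOF-101-[Mn] tumor 3 and the highest in PS473@CPs tumor 3. The r with the other members was 0.807 for Rps27 and 0.216 for Rps27rt, and 0.968 for their sum, whose SD was 0.40 on the log2 scale. Rps27 alone had 230, 165 and 157 FPKM in PS473@CPs and 80.2, 82.9 and 83.1 FPKM in PS473@NKMOF-101-[Mn], without overlap, and a log2 fold change of -1.13 ± 0.54 (SE, limma adjusted p of 0.996). It was the only member past a fold of 2 in any comparison. The sum had 183, 182 and 117 fragments per 1000000 in PS473@CPs and 102, 121 and 126 in PS473@NKMOF-101-[Mn], which overlapped, and its log2 fold change was -0.44 ± 0.33 (SE, limma adjusted p of 0.996). Whether the split is one of the cells or of how reads were assigned was not tested.

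**Figure D5:**
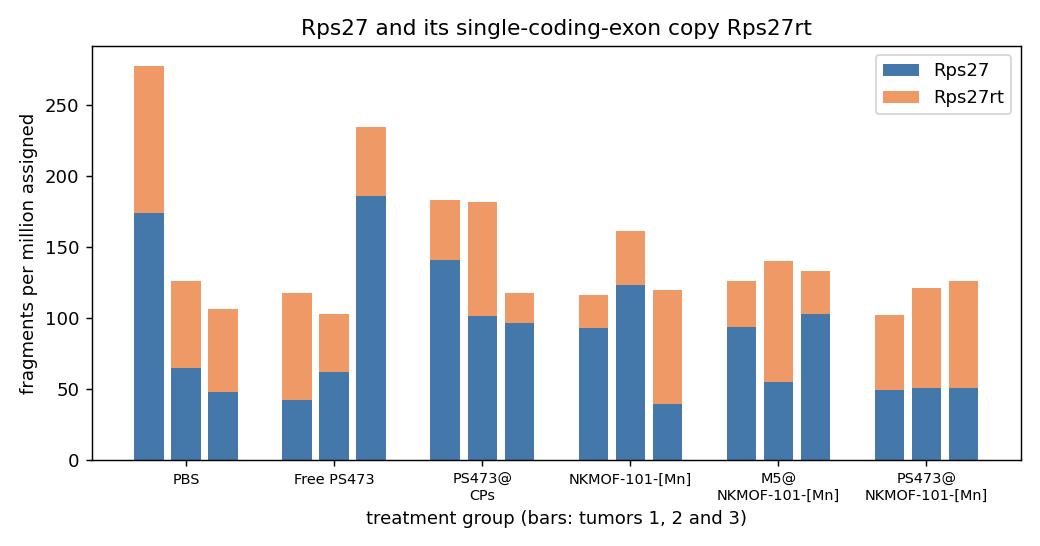
Fragments per 1000000 assigned to genes for Rps27 (blue) and Rps27rt (orange), stacked, 1 bar for each of 18 tumors. The blue part ranges from 32.9% to 82.2% of a bar, and the tallest bars are PBS tumor 1 (277) and Free PS473 tumor 3 (234).

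Other members also have near copies. Of the 78 tested members, 63 had an annotated copy elsewhere, 24 a copy in the deposited table, and 8 copies with more than 5% as many fragments as the gene. Rpl17, also a protein of the exit tunnel, had 51.2% to 82.1% of the fragments it shares with Rpl17-ps10, and its r with the other members was 0.705 alone and 0.879 summed with it. Rpl7a, with 20 annotated copies, had 170 FPKM in PBS tumor 2 and 613 in Free PS473 tumor 3. The levels of these genes are uncertain by what such copies hold. The 37 members with at least 50% of their 50-base words in other genes had a median SD of 0.26, as did the 41 others. The extremes differed, with a highest SD of 0.70 in the 37 and 0.41 in the others. The lowest r with the other members was 0.0036 in the 37 and 0.538 in the others, with medians of 0.941 and 0.933.

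Genes that act with the ribosome were counted by the same fits. Of 20 translation factors and other genes listed with them, 0 passed an unadjusted p under 0.05 in PS473@NKMOF-101-[Mn] against PBS. There 2.1% of all genes passed, and the median log2 fold change of the 20 was -0.03. As a list they had a mean log2(FPKM + 1) of 7.90 and 7.93 in PBS tumor 1 and Free PS473 tumor 3. The other 16 tumors had 7.58 to 7.83, and the list's median r with the member mean was 0.756. Single genes of the list went either way in the pair. Eef1a1, the factor that carries tRNA to the ribosome, had 6788 FPKM in PBS tumor 1 and 6478 in Free PS473 tumor 3, against 4257 to 5420 elsewhere. Eef2, the translocase, had 803 and 903 FPKM there, against 895 to 1345, and Pabpc1, the poly(A) binding protein, 273 and 306 against 335 to 402 FPKM. Of 70 ribosome biogenesis factors 0 passed, with a median of 0.00, of 16 tested genes of RNA polymerase I 0 passed (-0.08), and of 20 tested regulators such as Myc and Larp1 0 passed (0.01). Larp1, which binds the TOP tract, had 35.9 and 31.7 FPKM in PBS tumor 1 and Free PS473 tumor 3 and 36.2 to 60.2 FPKM elsewhere. Of the 78 mitochondrial ribosomal protein genes, which serve another ribosome, 1 was higher at that p and 0 lower, near the share of all genes, with a median of -0.02. Rack1, which sits on the 40S head and is outside the name rule, was highest in PBS tumor 1 (1338 FPKM) and Free PS473 tumor 3 (1230 FPKM), against 811 to 1089 FPKM elsewhere.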

How the data were processed

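From poly(A) RNA of 18 tumors the authors made and deposited 1 table of FPKM for 41079 genes, in which gene lengths stand beside the tumor columns. The build is GRCm39 per the submitters' processing notes. The aligner, the counting tool and the annotation are not given in the sources used here. Tumors were grouped by their labels, and the column for the ribozyme with no carrier was matched to Free PS473. Depth was read off the spacing of low values. Of these, 48.7% to 53.4% were whole fragments in a tumor, so no count model was used. A share of fragments is the sum over members of FPKM times gene length, divided by that over all genes.

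Values were analysed as log2(FPKM + 1), a scale that understates changes of low genes. Genes that averaged 1 FPKM or more (12357) entered a limma 3.58.1 fit in R 4.3.3, with 1 mean per group, a trend in the prior variance and no block. Adjustment followed Benjamini and Hochberg over all genes, and a call needed both an adjusted p under 0.05 and a fold above 2. The scripts were checked on data with known changes. Python 3.11.15 with pandas 2.3.3 and numpy 2.4.6 did the rest. Copies were found as annotated genes that share 50-base words with the principal transcript, in GENCODE M21 and RefSeq of GRCm38, which is another build than that of the table, so genes were matched by name only. Members and lists were chosen with earlier results of these data known. Genes named are those of the role lists, the 5 highest and 5 lowest in level and in SD, the 3 of smallest p in each comparison, listed genes and the 5 most alike. Rps12, Rps24, Rpl30, Rpl24 and Rpl32l, and the target gene Cd274, were named after their values were seen.

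Alternatives were a pseudocount of 0.1, no filter or one at 0.1 FPKM, quantile and upper-quartile scaling, rescaling without the mitochondrial genome or genes under 300 bases, no trend, the groups compared alone, the replicate number as a block, and each tumor left out. Same-numbered tumors did not all deviate together, with r over 0.1 in 12 of 27 pairs. Protein sequences were not used here.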

Additional observations from a re-analysis of the deposited data

How the results depend on the processing

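No member passed the adjusted threshold in any comparison under any alternative run. With 3 tumors a group, whose members had standard errors near 0.22 on the log2 scale, smaller differences could not be shown. The fit with the replicate number as a block (replicate block) called 0 members in every comparison, as did the fit without it. In 0 of 9 comparisons did every same-numbered pair correlate above 0.1. These r values ran from -0.73 to 0.72 and come from groups of 3 that the comparisons share, so they cannot exclude a pairing.

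Leaving out 1 tumor moved the member medians most. They ranged from -0.32 to 0.10 for PS473@NKMOF-101-[Mn] against PBS, from -0.18 to 0.31 for Free PS473 against PBS and from -0.10 to 0.30 for PS473@CPs against PBS, each highest without PBS tumor 1. PBS tumor 1 and Free PS473 tumor 3 were also left out together, an alternative chosen after seeing the data. The medians against PBS were then 0.10 for PS473@NKMOF-101-[Mn], 0.30 for PS473@CPs, 0.17 for NKMOF-101-[Mn], 0.15 for M5@NKMOF-101-[Mn] and 0.08 for Free PS473. Rpl13a in NKMOF-101-[Mn] against PBS changed sign without PBS tumor 1 (-0.47 to 0.13 with 1 tumor left out), and so did Rpl13 in M5@NKMOF-101-[Mn] against PBS (-0.27 to 0.027), both with the same values when both tumors were left out. Quantile normalization turned the median of PS473@CPs against PBS to -0.01, and rescaling without the mitochondrial genome gave 0.05. The mean share of the M5@NKMOF-101-[Mn] tumors was 3.78% with members that have larger copies left out, against 4.00%.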
